A study of Mus musculus with 6 samples.

Results

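Microexons are exons of 3 to 30 nucleotides (nt), here those that a catalogue of splicing events recorded as a single exon that one transcript includes and another skips. Pooling the 6 libraries of the series gave 540 distinct microexon regions among 8967 distinct regions with a single skipped exon. A region was defined by its gene, chromosome, strand and pattern of splice positions, so the same exon with another flanking splice site is another region. The 540 regions held 511 distinct exons of 428 genes, and 538 of them (99.6%) lay in protein-coding genes. For comparison, 7781 regions had a skipped exon of 31 to 300 nt, called longer exons below. The length range was the only choice made, so listing, sequence, place and the remainder of the length by 3 were free to vary.

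The RNA came from nucleus accumbens tissue of C57BL/6N mice. The saline group (replicates 1, 2 and 3) and the morphine group (replicates 4, 5 and 6) had both been trained for conditioned place preference, a test in which an animal learns to link a compartment with an injection. The saline mice received saline and the morphine mice morphine, an opioid receptor agonist; no other allele, agent, age or time is given in the labels. There were 3 libraries and 6 mice per group, and how the mice map to the libraries is not stated, so the p-values below measure the spread between these libraries. Each library was deposited as a catalogue of events in its assembled transcripts, and a listed region means that transcripts with and without the exon were both recorded. A region that is not listed was not recorded as an event. That does not show that the exon was absent, since an exon present in every transcript of a gene is no event either. Read depth and expression level are unknown, so no counting interval was computed.

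All 11 marker genes of medium spiny neurons, the main neurons of the accumbens, had at least 1 event of some type in every library. So did all 4 markers each of cortical glutamatergic neurons, oligodendrocytes, astrocytes, microglia and choroid plexus with ependyma. Of 3 endothelial markers, Flt1 and Pecam1 were listed in every library and Cldn5 in none. Listing gives no level, so the share of each cell type is unknown and its part in the results was not tested.

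Microexons are a class of exons included mainly in neurons. Most keep the reading frame and add a few amino acids to a protein, often at a surface where it meets a partner. Their inclusion is known to be promoted by the splicing factors Srrm4 and Srrm3, which act from the intron just before the exon, and to be restrained by Ptbp1. Hosts include synaptic adhesion proteins, vesicle release factors and regulators of the cytoskeleton. Srrm4, Srrm3, Ptbp1, Ptbp2, Nova1, Nova2 and the Rbfox genes each had an event in all 6 libraries.

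The sequences shown first come from gene families in which several members carry a microexon of the same length. Capitals mark the bases that differ within each family, and the sequences are read 5′ to 3′ from annotated transcripts (GENCODE M21, GRCm38). The families were chosen after the sequences had been compared. The teneurins, large transmembrane adhesion proteins that bind latrophilins, shared a 21-nt exon.
Tenm1: aaaCaGagaTACCaGacatag
Tenm2: aaaTaAagaGTTTaAacatag
Tenm3: aaaTaAagaTTTTaGacatag
Tenm4: aaaTaAagaTTTCaGacatag
These lay at chrX:42648394-42648414 (minus strand), chr11:36054926-36054946 (minus), chr8:48287133-48287153 (minus) and chr7:96854717-96854737 (plus), and 14 of 21 positions were the same in all 4 genes. The Tenm4 exon was listed in 6 libraries, the Tenm3 exon in 5, the Tenm1 exon in 4 and the Tenm2 exon in 3.

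The Cpeb genes encode RNA-binding proteins that control translation through the poly(A) tail, and 3 of them carried a 24-nt exon with 18 positions in common.
Cpeb2: cAaggaGTtatgggcgAagACgag
Cpeb3: cCaggaGCtatgggcgGagACgag
Cpeb4: cAaggaCTtatgggcgAagGAgag
The Cpeb3 exon (chr19:37105791-37105814, minus) and the Cpeb4 exon (chr11:31918801-31918824, plus) were listed in all 6 libraries and the Cpeb2 exon (chr5:43268869-43268892, plus) in 2.

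The receptor phosphatases Ptprd and Ptprf, presynaptic proteins of the LAR family, shared an 18-nt exon with 16 identical bases.
Ptprd: gtggtAcaccaatAagag
Ptprf: gtggtTcaccaatCagag
The Ptprd exon lay at chr4:76138556-76138573 and the Ptprf exon at chr4:118252076-118252093, both on the minus strand and both in coding sequence.

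Across genes, 415 annotated microexons of at least 9 nt gave 9452 pairs of the same length from different genes. The median pair shared 27.9% of its bases and the 95th percentile was 45.8%. At or above 75% identity there were 24 pairs. Ap1g1 and Myo5a, unrelated genes with a 9-nt exon, formed one of them, and Mink1 and Tnik, related kinases, another. The rest were members of the same family, such as Tenm3 and Tenm4 (95.2% over 21 nt), the calcineurin catalytic subunits Ppp3ca and Ppp3cb (86.7% over 30 nt), the latrophilins Adgrl1 and Adgrl3 (86.7% over 15 nt) and the translation initiation factors Eif4g1 and Eif4g3 (76.2% over 21 nt). Pairs share genes, so these are descriptions without a test.

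**Figure D1:**
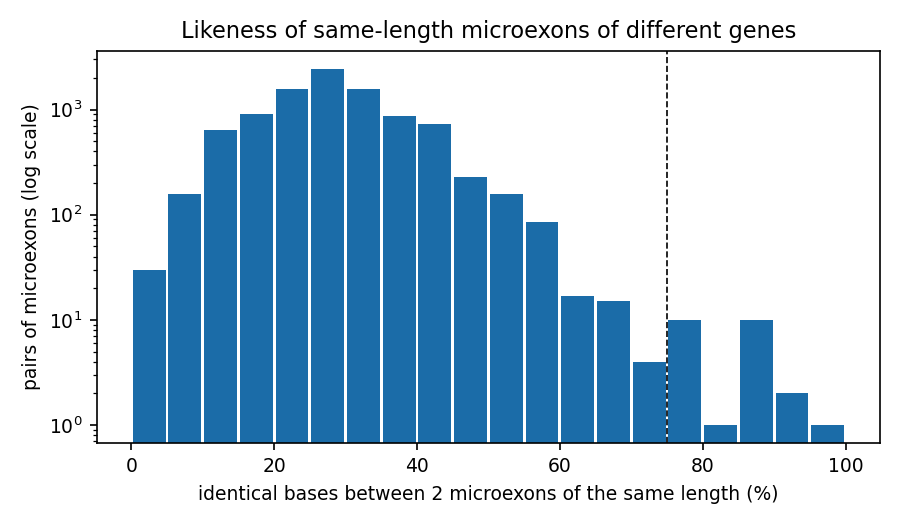
Number of microexon pairs (vertical, log scale) by the percentage of identical bases (horizontal) for 9452 pairs of the same length from different genes; the dashed line marks 75%. Most pairs lie near the median of 27.9%, and 24 pairs lie at or above the line.

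Microexon lengths fell mainly on multiples of 3. Of the 540 regions, 449 (83.1%) had a length divisible by 3, against 3982 of 7781 longer exons (51.2%); 35.7% of the lengths from 3 to 30 nt are divisible by 3. The most frequent lengths were 27 nt (82 regions), 24 nt (74) and 21 nt (70). Within libraries the share was 87.8%, 89.0% and 86.6% for the saline libraries, 88.1%, 85.8% and 88.2% for the morphine libraries, and the longer exons had 57.0% to 58.8%. The mean over the 6 libraries was 87.6% ± 1.19 for microexons and 57.8% ± 0.720 for longer exons (SD, n = 6), a difference of 29.8 percentage points that every library showed. An exact two-sided sign-flip permutation test over libraries gave p = 0.031, the smallest that 6 libraries allow, and 0.0352 after Benjamini-Hochberg adjustment over 9 such comparisons. The libraries list many of the same regions, so this p covers only the spread between catalogues. Leaving out 1 library leaves 5, whose smallest p is 0.0625.

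The share fell with length, from 91.9% at 3 to 12 nt over 87.3% at 13 to 21 nt and 77.7% at 22 to 30 nt to 61.4% at 31 to 60 nt and 49.5% at 61 to 150 nt. On either side of the limit, 69.7% of the 76 regions of 28 to 30 nt and 68.3% of the 126 regions of 31 to 33 nt were divisible by 3. The share thus had no step at the limit of 30 nt.

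**Figure D2:**
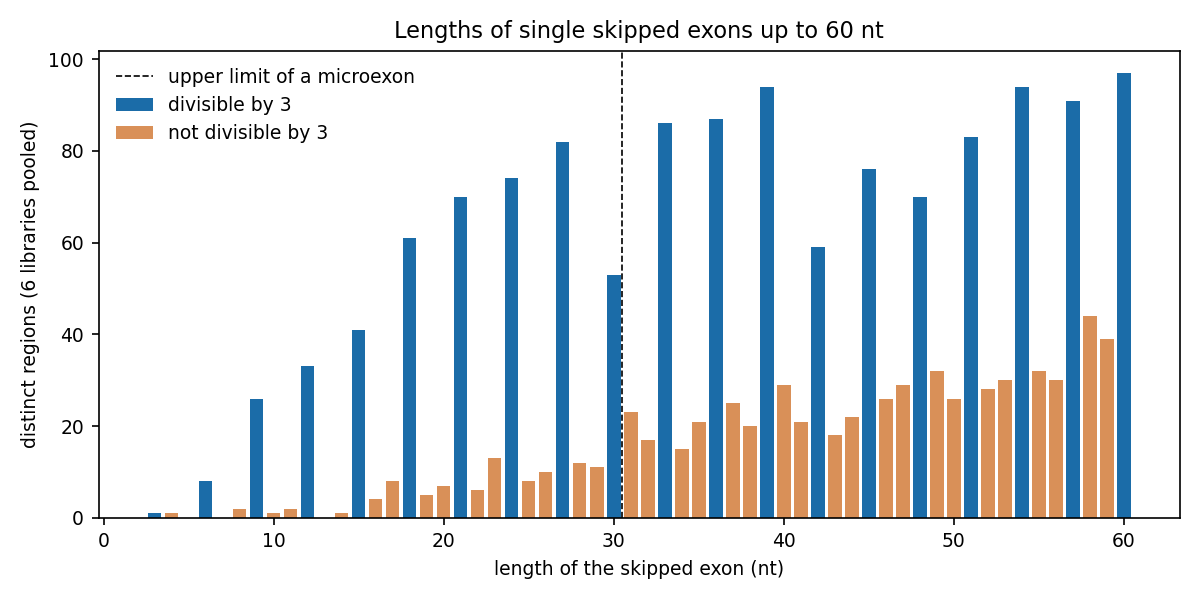
Number of distinct regions (vertical) by length of the skipped exon in nt (horizontal) up to 60 nt, with lengths divisible by 3 in blue, other lengths in orange and the limit of a microexon as a dashed line. From 6 nt on, multiples of 3 stand above their neighbours, with 82 regions at 27 nt and 74 at 24 nt.

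The annotation places 401 of the 540 regions (74.3%) wholly in coding sequence, and 373 of these (93.0%) were divisible by 3, against 2809 of 4663 longer coding exons (60.2%). Per library the coding share was 95.4% ± 0.806 for microexons and 69.4% ± 0.811 for longer exons (SD, n = 6; difference 26.0 points, 6 of 6 libraries, exact sign-flip p = 0.031, adjusted 0.0352). This p too covers only the spread between catalogues that list many of the same regions. Among the frame-preserving coding microexons, 159 of 373 (42.6%) began on a codon boundary. Outside coding sequence, 18 regions were partly coding, 12 lay in noncoding transcripts, 11 in 5′ untranslated regions and 1 in a 3′ untranslated region, and 8 with 1 more in an untranslated part lay in transcripts annotated for nonsense-mediated decay. Another 88 regions had no annotated exon with the same boundaries, and 52 of them (59.1%) were divisible by 3, against 471 of 1138 unannotated longer exons (41.4%).

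Microexons also differed from longer exons in features that a length limit does not fix. The annotated exons had a GC content of 47.2% ± 0.262 against 50.1% ± 0.163 (SD, n = 6). The median intron was shorter before the microexon, 1945 ± 89.0 against 2303 ± 37.3 nt, and after it, 1824 ± 60.3 against 2437 ± 54.9 nt. The junction that skips the exon was annotated for 94.0% ± 0.502 of microexon regions and 82.8% ± 0.473 of longer ones. Each of these 4 differences had the same sign in 6 of 6 libraries (exact sign-flip p = 0.031, adjusted 0.0352). They were chosen after the data had been seen. The libraries list many of the same regions, so this p covers only the spread between catalogues. Of longer exons, 12.3% lay in 5′ untranslated regions and 59.9% in coding sequence, against 2.04% and 74.3% of microexons. The part of place in these 4 differences was not tested, and they were not set against exons of 31 to 60 nt. The share of exons with annotated boundaries was 90.5% ± 0.806 for microexons and 90.8% ± 0.779 for longer exons, a difference of -0.354 points that was higher in 3 of 6 libraries (exact sign-flip p = 0.469).

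Microexons were listed in all 6 libraries more often than longer exons as a whole, while the longer exons nearest in length had a similar or higher share. All 6 libraries listed 181 of the 540 regions (33.5%), in 156 genes, and 134 (24.8%) were listed in a single library, against 23.6% and 37.8% of longer exons. At 31 to 60 nt 32.8% of regions were listed in all 6 libraries, and the share was 32.9% at 28 to 30 nt against 42.1% at 31 to 33 nt. As a share of a library's own regions, those listed in all 6 made up 54.6% ± 1.54 of microexons and 46.4% ± 1.89 of longer exons (SD, n = 6), a difference of 8.18 points, or 4.09 points against exons of 31 to 100 nt. Every library holds the same 181 and 1837 constant regions, so the 6 shares restate one pooled ratio and no p is given. The shortest exons went the other way. Only 8 of the 74 regions of 3 to 12 nt (10.8%) were listed in all 6 libraries, against 73 of 197 (37.1%) at 13 to 21 nt and 100 of 269 (37.2%) at 22 to 30 nt. With an upper limit of 15 nt the difference from longer exons was -14.8 points. How well the authors' alignment finds very short exons was not tested. Of the 181 constant regions, 171 were divisible by 3 and 4 were not annotated.

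**Figure D3:**
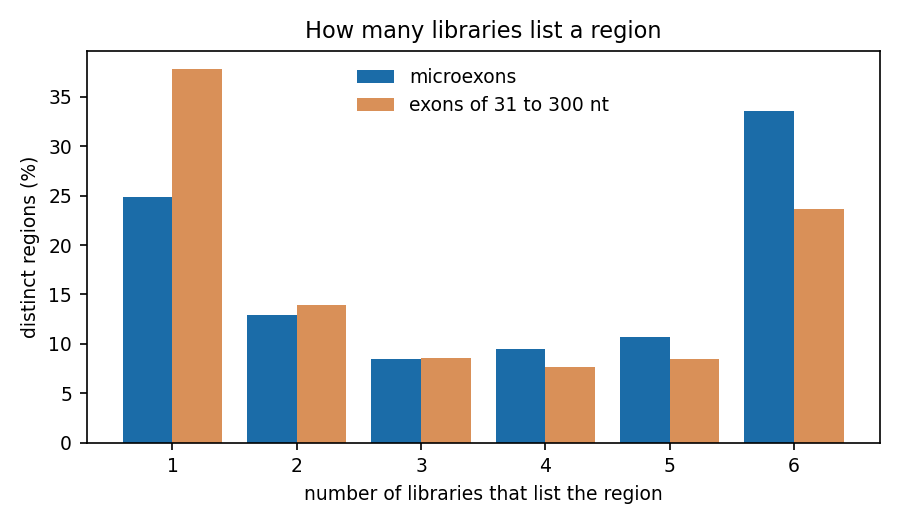
Percentage of distinct regions (vertical) by the number of libraries that list them (horizontal), for 540 microexons and 7781 longer exons. Microexons have the larger share at 6 libraries (33.5% against 23.6%) and the smaller at 1 library (24.8% against 37.8%).

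**Figure D4:**
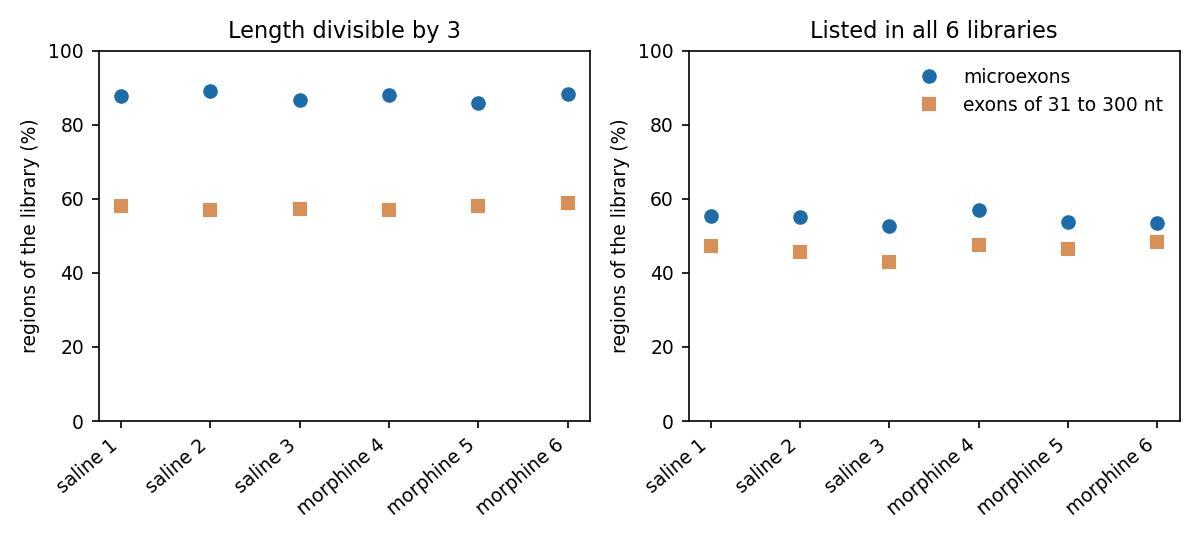
Percentage of a library's regions (vertical) with a length divisible by 3 (left) and listed in all 6 libraries (right), by library (horizontal), for microexons and longer exons. Microexons lie above longer exons in every library in both panels, and the saline and morphine libraries overlap; the right panel has the same constant regions in every library.

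The comparison of morphine with saline asks whether the set of recorded microexons differs after morphine training. Saline libraries listed 327, 328 and 343 microexon regions and morphine libraries 318, 337 and 339. The group means were 333 ± 8.96 and 331 ± 11.6 (SD, n = 3 each), a difference of -1.33 regions (exact permutation p = 1). As a share of all single skipped exons, microexons made up 7.35%, 7.17% and 7.04% in the saline libraries against 7.18%, 7.50% and 7.76% in the morphine libraries, and the groups overlapped (difference 0.292 points, exact permutation p = 0.2, adjusted 1 over 5 comparisons). The share divisible by 3 was 87.8% ± 1.22 for saline libraries against 87.3% ± 1.37 for morphine libraries (n = 3 each, exact permutation p = 0.7). The share annotated was 90.4% ± 0.992 and 90.6% ± 0.789 (exact permutation p = 0.9, n = 3 each). The smallest p for 3 against 3 is 0.1, so no comparison of this kind could pass 0.05.

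All 3 libraries of one group and none of the other listed 7 of the 540 microexon regions (1.3%), 3 in saline and 4 in morphine. Over all single skipped exons this held for 74 of 8967 regions (0.825%), with 0.491% in saline alone and 0.335% in morphine alone, and for longer exons for 0.758% (0.45% in saline alone, 0.308% in morphine alone). The 7 regions are few and 2 of them are versions of one Synj1 exon, so nothing is read from the gap between these percentages. The exons that follow are shown because they are the ones recorded in a single group, with the exon in capitals and the neighbouring exon bases in lower case.
Adam22: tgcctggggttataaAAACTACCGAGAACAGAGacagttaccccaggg
Impdh1: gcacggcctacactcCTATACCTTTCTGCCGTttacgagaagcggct
Kcnh7: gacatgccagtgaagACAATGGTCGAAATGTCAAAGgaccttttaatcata
These were the saline regions. Adam22 encodes a synaptic receptor for the secreted protein Lgi1, and its 18-nt exon (chr5:8107002-8107019, minus) was listed with another flanking splice site in all 6 libraries, so the group difference concerns the flank and not the exon. Impdh1 encodes an enzyme of guanine nucleotide synthesis, and its coding exon of 17 nt (chr6:29201888-29201904, minus) shifts the frame. Impdh1 had 5, 9 and 3 events of any type in the saline libraries against 3, 2 and 3 after morphine, so the ranges overlap. Kcnh7 encodes a potassium channel subunit of the ERG type, and its 21-nt exon (chr2:62845754-62845774, minus) lay in a gene with 4, 13 and 6 events in the saline libraries against 3, 3 and 6 after morphine.

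In morphine alone, Vps29, a subunit of the retromer complex that recycles membrane proteins from endosomes, had a 12-nt coding exon, GCTGGGCACAGA (chr5:122356794-122356805, plus). Its gene had 3, 4 and 4 events in the saline libraries against 3, 12 and 4 after morphine. Synj1 encodes synaptojanin, the lipid phosphatase that helps uncoat synaptic vesicles after endocytosis, and had exons of 21 nt (chr16:90940473-90940493, minus) and 24 nt (chr16:90940473-90940496) that differ by 3 nt at the acceptor. Synj1 had 7 events in each saline library and 10, 10 and 8 in the morphine libraries, and another 24-nt exon of the gene was listed in all 6. These counts of events of any type include the 2 regions themselves, so they are not separate from the choice of Synj1. The last was an 18-nt exon of the unnamed gene ENSMUSG00000098615 on an alternate assembly patch, which 1 saline library held within an event of another type. On the primary assembly, Arvcf, a catenin of cell junctions, had an 18-nt exon between introns of the same lengths (527 and 768 nt) in all 6 libraries, so an exon of this form was not recorded in morphine alone. Counted per gene, microexon regions did not overlap between the groups in 6 of 428 host genes (1.4%), against 74 of 4799 genes with any single skipped exon (1.54%, with morphine above saline in 0.604% and saline above morphine in 0.938%). They were Impdh1, Kcnh7, Synj1, Vps29, ENSMUSG00000098615 and Shank2, a postsynaptic scaffold with 0 regions in every saline library against 1, 1 and 2 after morphine. Each of the 4 Shank2 regions was listed in a single library.

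Among the lists of functional groups, that of adhesion and guidance genes held the most microexon regions. The lists were chosen with earlier results of these data known, so this rank depends on that choice. Over all genes, 540 regions were microexons and 7781 had a single skipped exon of 31 to 300 nt, among 8967 of any length. Of 57 genes in that list, 47 had a single skipped exon and 24 a microexon. They held 51 regions, of which 50 were divisible by 3 and 23 were listed in all 6 libraries. Microexons made up 30.7% of the single skipped exons up to 300 nt in these genes. The saline libraries listed 36, 40 and 41 of the 51 regions and the morphine libraries 38, 34 and 39, so the groups overlapped. The lowest count came from morphine replicate 5, where Ptprd had 2 regions against 7 in each of the other 5 libraries.

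**Figure D5:**
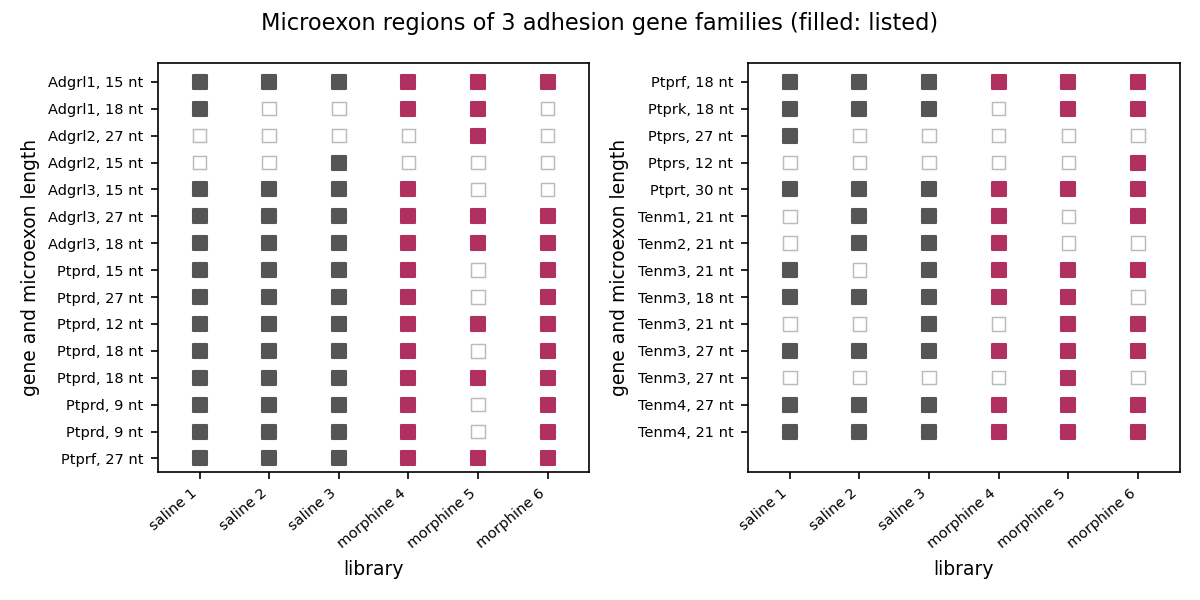
Listing of the microexon regions of receptor phosphatases, teneurins and latrophilins in the list of adhesion and guidance genes (vertical: gene and exon length in nt). The 3 saline (grey) and 3 morphine (red) libraries are horizontal, and filled squares are listed. Receptor phosphatases outside that list, such as Ptpra and Ptprz1, also had microexon regions and are not drawn. Constant regions such as those of Ptprf are filled in all 6 libraries, and Ptprd has 2 filled squares in morphine replicate 5.

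Ptprd, whose extracellular microexons are known to set which postsynaptic partners it binds, had 7 regions from 5 exons of 15, 27, 12, 18 and 9 nt. The 12-nt exon and 1 of the 18-nt regions were listed in all 6 libraries. The exons of 18 and 9 nt are neighbours with an intron of 720 nt between them, and each is also recorded with the other as its flank. They are shown because both join the same upstream exon.
Ptprd 18 nt: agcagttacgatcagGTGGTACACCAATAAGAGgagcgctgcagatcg
Ptprd 9 nt: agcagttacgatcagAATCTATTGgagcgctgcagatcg
Nrxn2, a neurexin of the presynaptic membrane, had 4 regions, 3 of them in every library. Tenm3 had 5 regions from 4 exons, with 3, 2 and 4 listed under saline against 3, 5 and 3 under morphine. Outside that list, Adam22 had 5 regions from 2 exons. Pairs of neighbouring microexons numbered 10, in 9 genes, and included exons of 24 and 18 nt in Clasp2, which encodes a protein that stabilises microtubule ends, and of 27 and 30 nt in Myo6, an actin motor.

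In genes of vesicle release and endocytosis, 23 of 60 listed genes had a microexon, with 32 regions and 7 constant ones. Saline libraries listed 18, 17 and 19 regions and morphine libraries 17, 20 and 18. Cadps, a priming factor for dense-core vesicles, had exons of 21 and 18 nt in all 6 libraries, and Vti1a, a SNARE protein, one of 21 nt. Cytoskeletal and motor genes had 38 regions in 20 of 60 genes, all of them divisible by 3 and 17 of them constant. Their counts were 28, 25 and 27 under saline against 30, 27 and 27 under morphine. The kinesin Kif1a had 3 constant regions, Kif1b an 18-nt exon, Dctn1 of the dynactin complex a 15-nt exon and the spectrin Sptan1 a 15-nt exon, all in every library. Genes of small GTPase signalling had 20 regions in 18 of 60 genes, 10 of them constant, with 14, 13 and 14 under saline against 12, 14 and 13 under morphine. Rapgef6, an exchange factor for Rap proteins, had constant exons of 15 and 24 nt.

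Postsynaptic and kinase genes had 25 regions in 17 of 50 genes, all divisible by 3 and 11 constant, with 15, 15 and 14 under saline against 16, 15 and 18 under morphine. Dlgap1, a scaffold of the postsynaptic density, had a constant 30-nt exon, and the scaffold kinase Cask a constant 18-nt exon. Ptk2, focal adhesion kinase, is outside that list and had 3 constant regions of 9, 21 and 18 nt. Src, a kinase with a known neuronal microexon, had its 18-nt exon listed in saline replicates 1 and 2 and morphine replicates 4 and 6. Channel and receptor genes had 15 regions in 13 of 47 genes, 6 of them constant, with 11, 9 and 10 under saline against 10, 10 and 9 under morphine.

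Chromatin and transcription genes had the fewest regions of the lists, 8 in 8 of 45 genes, 1 of them constant and 5 divisible by 3. Microexons made up 7.84% of the single skipped exons up to 300 nt in these genes, the lowest share of the 9 lists. Over all genes there were 540 microexons and 7781 longer exons up to that length, so this share was not below that of all genes. Saline libraries listed 5 of the 8 regions each and morphine libraries 4, 7 and 2. The constant one was the 24-nt exon of the transcription factor Mef2a, and Mef2d had a 21-nt exon in all libraries but morphine replicate 6. Rest, a repressor of neuronal genes, had an unannotated 16-nt exon in saline replicate 2 and morphine replicate 5. The low count depends on which genes this list holds. Outside it, the transcription genes Camta1 (21 nt), Max (27 nt) and Ncor1 (27 nt) had constant regions. Genes of RNA regulation had 9 regions in 6 of 44 genes, 4 of them constant, with 6, 5 and 6 under saline against 6, 6 and 7 under morphine. Srrm3 itself had a partly coding 20-nt exon in saline replicate 3 and morphine replicate 5.

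A list of 57 genes known to host neural microexons gave 69 regions in 40 genes, and 66 of the regions were divisible by 3. Of the 69 regions, 29 were constant, against 181 of 540 among all microexons and 165 of 401 among those wholly in coding sequence. Saline libraries listed 50, 51 and 48 and morphine libraries 50, 43 and 50. The lists overlap, and together they held 199 regions in 130 of 424 genes, while 341 regions lay in no list. All 9 lists overlapped between the groups in their counts per library.

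The shortest exons were of 3 to 6 nt, with 10 regions. Vdac3, a channel of the outer mitochondrial membrane, had an unannotated exon of 3 nt in saline replicates 1 and 2, and Mpc1, a subunit of the mitochondrial pyruvate carrier, a frame-shifting exon of 4 nt in morphine replicate 5. The 8 exons of 6 nt were those of Ap2m1, Apbb1, Git2, Hook2, Nsmf, Pacsin2, Reln and Unc13c. Ap2m1, a subunit of the clathrin adaptor of endocytosis, was listed in all libraries but morphine replicate 5, and Apbb1, an adaptor that binds the amyloid precursor protein, in all but morphine replicate 6. Reln, a secreted guide of neuronal migration, was listed in saline replicate 3 and morphine replicate 4. They are shown to give the scale of these exons, in capitals between the exon bases on either side.
Ap2m1: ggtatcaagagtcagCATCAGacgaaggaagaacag
Apbb1: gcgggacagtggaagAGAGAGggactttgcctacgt
Reln: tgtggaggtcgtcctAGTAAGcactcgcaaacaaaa
Their positions are chr16:20540808-20540813 (plus), chr7:105565946-105565951 (minus) and chr5:21891562-21891567 (minus). No region of 3 to 6 nt was listed in all 6 libraries.

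Some microexons came in versions with a second splice site. There were 15 pairs that shared one end, 10 differing at the acceptor and 5 at the donor, and 5 of the acceptor pairs differed by 3 nt (Inpp4a, Kif21a, Macf1, Synj1 and Tenm3). In Inpp4a, a phosphatase of membrane lipids, the 15-nt and 18-nt versions were both listed in all 6 libraries, and in the cytoskeletal linker Macf1 the 12-nt and 15-nt versions were both listed in morphine replicates 4 and 5. No sequence is given here for Synj1, whose exons are annotated, or for Tenm3, whose exons of this pair are not. In Inpp4a, Kif21a and Macf1 the 3 extra bases (capitals) were the same. They form the end of the intron of the shorter version, so an acceptor site limits which bases they can be.
Inpp4a: CAGttttgaggagtgttg
Kif21a: CAGatccaccagaag
Macf1: CAGctatgcccggaa
Snx21, a sorting nexin, had 6 regions from exons of 11, 16, 21 and 27 nt, with 1, 4 and 1 listed under saline against 1, 2 and 3 under morphine.

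Constant microexons that shift the frame or lie outside coding sequence were few. Of the 181 constant regions, 165 lay wholly in coding sequence. Not divisible by 3 were 10 regions, in or outside coding sequence. They included the 29-nt coding exon of Kcnma1, the BK potassium channel, the 26-nt exon of Hnrnpc in its 5′ untranslated region, the 20-nt exon of Rps24 in its 3′ untranslated region and a 17-nt exon of the collagen gene Col4a1 in a transcript annotated for nonsense-mediated decay.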

How the data were processed

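RNA of nucleus accumbens from 3 saline and 3 morphine libraries was sequenced on an Illumina platform, per the labels' protocols. The authors deposited 1 catalogue of alternative events per library; no source used here names the assembler, event caller, aligner or genome build. Deposited event starts and ends are genomic positions. The deposited column headed fpkm holds whole numbers from -24 to 0, was treated as a score of unknown meaning and was not used. Positions were read on GRCm38, because 7376 of 8967 skipped exons (82.3%) have the boundaries of an exon in GENCODE M21.

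Single skipped exons were pooled by gene, chromosome, pattern and strand with Python 3.11.15, pandas 2.3.3 and numpy 2.4.6. Groups were compared by exact two-sided permutation over libraries, and microexons with longer exons by exact two-sided sign flips over 6 libraries, each family with Benjamini-Hochberg adjustment. Of the 9 sign-flip comparisons, 6 were added after seeing the data; the 2 on constant listing are given without a p. The test code was tested on simulated data. Sequences come from annotated transcripts, with 15 exon bases on either side; intron windows and the search for TGC before the exon were not run, since no genome sequence was used here.

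Named were regions listed in one group alone, up to 30 constant regions of listed genes, the shortest exons and genes with several regions or microexons, apart from some that are not reported here; the families, Src, Mef2d, Rest, Srrm3 and the frame-shifting constant exons were chosen after their values were seen. Members and lists were chosen with earlier results of these data known. Alternatives were upper limits of 27 and 15 nt, exon boundaries as identity, annotated exons alone, an added event code with uncertain ends, longer exons up to 100 nt, and leaving out each library.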

Additional observations from a re-analysis of the deposited data

How the results depend on the processing

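Of 100 alternative values, 66 kept their direction and side of the threshold of 0.05 or stayed within 1.5 times a count. Comparisons of morphine with saline cannot give a p below 0.1, and sign flips without 1 library none below 0.0625. For these the side of 0.05 was fixed in advance, so only the direction was free to change. The tally also scores constant listing by a p that is not given above. It is therefore no measure of how firm the results are. The excess of lengths divisible by 3 over longer exons was 26.6 to 38.6 percentage points under the 6 other settings and 29.4 to 30.2 without 1 library. With 5 libraries no sign-flip p can be below 0.0625. The excess of constant listing turned to -14.8 with an upper limit of 15 nt, was 4.09 against exons of 31 to 100 nt and 6.88 to 9.82 without 1 library. The difference in annotated share was -3.79 with a limit of 15 nt, -0.931 with 27 nt, and -0.486 to -0.0335 without 1 library. Differences between morphine and saline changed sign easily. The share divisible by 3 differed by 0.198 with a limit of 27 nt and 0.0689 for annotated exons alone, and the share of microexons by -0.0397 with a limit of 15 nt. With events of uncertain ends added, regions per library differed by 1.33, the share annotated by -0.0697 and the constant share by -0.209. Without 1 library these differences ranged from -5.17 to 5.33 regions, 0.151 to 0.441 points for the share of microexons, -1.06 to 0.332 for divisibility, -0.282 to 0.698 for annotation and -0.913 to 0.923 for constant listing. Regions listed in one group alone numbered 1 with a limit of 15 nt and 11 to 19 without 1 library, since fewer libraries must then agree. The cause of the other changes was not tested. The planned search for TGC before the exon was not run. No paired analysis was possible because the groups share no replicate numbers. Depth is unknown, so what it limits could not be measured.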
